A study of Mus musculus with 8 samples.

Results

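Genes for integrins, dystroglycan and the adaptor Ilk were followed through the differentiation of oligodendrocytes (OLs), the myelin-forming cells of the brain, namely *Itgb1*, *Itga6*, *Itgav*, *Itgb3*, *Itgb4*, *Itgb5*, *Itgb8*, *Itga7*, *Dag1* and *Ilk*. They were taken by symbol from the table of all genes, and 10 of 10 were among its 23427 genes. The cells were primary oligodendrocyte precursor cells (OPCs) from the cortices of wild-type C57BL/6J mouse pups at postnatal day 7, with 3 pups pooled. They were caught on dishes coated with an antibody against PDGFRα after lectin-coated dishes had removed microglia and endothelial cells, and were grown on poly-D-lysine, per the methods in a medium of defined supplements and per the labels in DMEM with fetal bovine serum. Differentiation was started by withdrawing the growth factor PDGF-AA and adding the thyroid hormone T3, and the mRNA of Day 0, Day 1, Day 2 and Day 3 was sequenced from 2 replicates per day, which the study describes as independent. All 8 libraries share the genotype, strain and culture protocol. No untreated culture runs beside the later days, so that time in culture and differentiation cannot be told apart. Levels are given as FPKM, the fragments of a gene per kilobase of transcript, scaled to the mapped fragments of the library.

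Integrins are receptors made of an α and a β subunit that bind the extracellular matrix. The αv subunit, encoded by *Itgav*, pairs with β1, β3, β5, β6 or β8 and binds ligands such as vitronectin, fibronectin and latent TGF-β. The α6 and α7 subunits make laminin receptors, α6 with β1 or β4 and α7 with β1. In the OL lineage αv integrins are known from the migration and proliferation of progenitors, and α6β1 from the survival of newly formed OLs on laminin. Dystroglycan, encoded by *Dag1*, is a laminin receptor that is not an integrin and is anchored to dystrophin or utrophin. Ilk binds the tail of β1 and holds together a complex with PINCH proteins, parvins and Rsu1 that links integrins to actin.

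The αv subunit gene *Itgav* fell over the 3 days, and the gene of its partner, *Itgb1*, was not called. The sequences upstream of these genes and of *Dag1* are shown for orientation, as abundant members with an upstream window in the table that holds no annotated exon. Each is the 250 bases before the transcription start in the RefSeq annotation of GRCm38.p6, printed 5′ to 3′ on the strand of the gene, and capitals mark the motif GGGCGG (the GC box). RefSeq promoter entries were at hand for 6 of the 10 members.
*Itgav*, chr2:83724147-83724396, plus strand: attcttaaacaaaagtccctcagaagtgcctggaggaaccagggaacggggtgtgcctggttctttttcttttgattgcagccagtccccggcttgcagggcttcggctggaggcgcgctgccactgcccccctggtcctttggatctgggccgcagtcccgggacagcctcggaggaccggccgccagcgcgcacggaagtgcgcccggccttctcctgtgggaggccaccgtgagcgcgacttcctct
*Itgb1*, chr8:128685404-128685653, plus strand: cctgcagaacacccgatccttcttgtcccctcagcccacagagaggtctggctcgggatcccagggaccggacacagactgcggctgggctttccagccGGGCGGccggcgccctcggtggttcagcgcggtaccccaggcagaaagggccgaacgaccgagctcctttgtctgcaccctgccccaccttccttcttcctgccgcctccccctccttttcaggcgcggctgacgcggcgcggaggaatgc
*Dag1*, chr9:108263959-108264208, minus strand: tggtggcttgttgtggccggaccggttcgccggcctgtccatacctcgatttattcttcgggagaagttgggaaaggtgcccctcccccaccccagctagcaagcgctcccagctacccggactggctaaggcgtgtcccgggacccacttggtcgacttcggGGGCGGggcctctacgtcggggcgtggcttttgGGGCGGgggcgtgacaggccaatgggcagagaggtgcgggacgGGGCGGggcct
All 3 windows were rich in G and C (64.4% for *Itgav*, 68.0% for *Itgb1* and 67.6% for *Dag1*, against a median of 52.4% over 32851 promoters of the same length). The letters GGGCGG, searched on both strands, were found 0 times for *Itgav*, 1 time for *Itgb1* and 3 times for *Dag1*, and are present in 32.7% of all promoters. The letters TATAAA were in none of the 3 windows (12.4% of promoters), and CCAAT stood once, in *Dag1* (33.8% of promoters).

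The libraries carried the markers of the lineage. The summed FPKM of 5 OPC markers went from 946.5–963 on Day 0 to 114.1–208.9 on Day 3, and that of 6 OL markers from 787.4–1074 to 18960–26850. Microglial markers summed to at most 2.509 FPKM, with 6 of 7 at 0 in all libraries, endothelial markers to at most 3.306 (3 of 6 at 0) and mural and fibroblast markers to at most 2.196 (2 of 6 at 0). Neuronal markers summed to 41.27–237.5 FPKM. On Day 3 most of the sum was *Tubb3*, at 230.9 FPKM in replicate 1 and 112.7 in replicate 2. *Rbfox3* and *Stmn2* reached at most 0.305 and 0.862 FPKM in any library. Of the 6 neuronal markers, 4 were tested from Day 0 to Day 3 as described below. *Tubb3* was called higher (log2 fold change 2.15), *Syp* was called lower (-1.74) and 2 were not called, so the sum does not stand for the list. Astrocyte markers differed between the numbered replicates on every day, with sums of 133.4–168.5 in replicate 1 and 423.2–962.2 in replicate 2. Day 3 replicate 2 had the highest astrocyte sum, the lowest OPC sum and the least depth, and is given separately wherever a value rests on it. As these are bulk cultures, fewer cells of a type and less RNA per cell cannot be told apart. Depth, read from the spacing of the lowest values, was about 950000 to 1530000 fragments per library.

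From Day 0 to Day 3, *Itgav* and *Dag1* fell and *Ilk* rose, while the other 5 of the 8 members tested did not pass the threshold. The test was limma on log2(FPKM + 1) with Benjamini-Hochberg adjustment over the 12208 genes that reached 1 FPKM in 2 or more libraries, called at an adjusted p under 0.05. *Itgb4* and *Itgb5* did not reach that level and were not tested. Of all genes tested, 11.96% were called higher and 26.27% lower, so that 1 of 8 members higher and 2 of 8 lower is close to the share among all genes. The members' median log2 fold change was 0.03, beside -0.31 for all genes. The median depended on the scaling between libraries, at -0.04 with median ratio scaling and -0.02 with quantile normalization, and changes relative to it are therefore given as well.

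**Figure D1:**
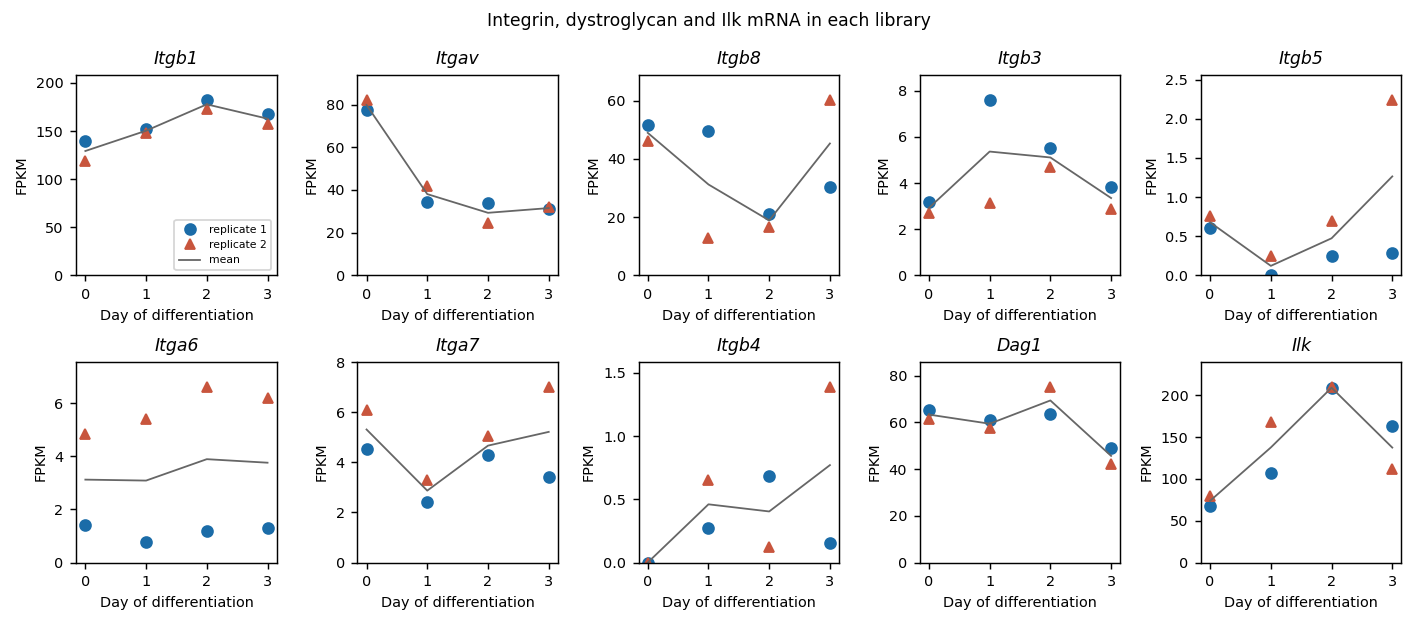
FPKM of the 10 members (y axes, each from 0) against day of differentiation (x axes), with circles for replicate 1, triangles for replicate 2 and a line through the daily means. *Itgav* was highest in both Day 0 libraries, *Ilk* peaked on Day 2 at 208.3 and 210.2 FPKM, and *Itga6* was higher in replicate 2 on every day.

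*Itgb1*, the common β subunit, was the most abundant member in 5 of the 8 libraries, *Ilk* being above it in the others. Its gene lies on chromosome 8 (128685654 to 128733200, plus strand, GRCm38). Its level was 139.1 and 119.3 FPKM (Day 0, replicate 1 and replicate 2), 152.2 and 148.4 (Day 1), 182.6 and 172.8 (Day 2) and 168.1 and 157.5 (Day 3). Both Day 0 libraries were thus below all 6 later ones. The log2 fold change between Day 0 and Day 3 was 0.33 (limma, SE 0.13, adjusted p = 0.0678), which did not pass the threshold, and relative to the median of all genes it was 0.65. With median ratio scaling it passed (0.65, adjusted p = 0.00457 from limma). No step between consecutive days was called, with adjusted p from 0.301 to 0.714 (limma).

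*Itgav* fell early and stayed low. The gene lies on chromosome 2 (83724397 to 83806916, plus strand). Its level was 77.4 and 82.4 FPKM (Day 0), 34.3 and 41.8 (Day 1), 33.9 and 24.7 (Day 2) and 31.2 and 31.8 (Day 3), on 213 to 835 fragments per library. Both Day 0 values lay above all later values and both Day 1 values above those of Day 2 and Day 3, which overlapped. The first step had a log2 fold change of -1.06 (limma, SE 0.18, adjusted p = 0.00693), where 5.04% of all genes were called higher and 7.56% lower. This call was lost without either Day 0 library (adjusted p = 0.0538 without replicate 1 and 0.0690 without replicate 2). The following steps were -0.38 (adjusted p = 0.262) and 0.12 (adjusted p = 0.824, limma). Over the whole course the log2 fold change was -1.31 (limma, SE 0.18, adjusted p = 0.000930), that is, -1.001 relative to the median of all genes, and it was called under every alternative tried. The mean went from 79.9 ± 3.55 to 31.5 ± 0.44 FPKM (SD, n = 2), a ratio of 0.394.

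Of the other β partners of αv, only *Itgb3* and *Itgb8* were tested, and neither was called in any comparison of days. *Itgb5* and *Itgb6* were too low to be tested. From Day 0 to Day 3, 11.96% of all genes tested were called higher and 26.27% lower. *Itgb8*, whose product activates latent TGF-β when paired with αv, lies on chromosome 12 (119158022 to 119238802, minus strand) and varied between replicates more than the other abundant members did. It was at 51.8 and 46.1 FPKM (Day 0), 49.5 and 12.9 (Day 1), 20.9 and 16.7 (Day 2) and 30.2 and 60.3 (Day 3). Its Day 1 libraries differed more from each other than Day 0 did from Day 3, and its Day 3 libraries lay on either side of both Day 0 values. Day 3 against Day 0 gave a log2 fold change of -0.19 (limma, SE 0.54, adjusted p = 0.805), and its sign turned with median ratio scaling (0.12) and without Day 3 replicate 1 (0.30). The Day 1 value rested on the choice of library. It was -0.91 (adjusted p = 0.328) with both, -1.84 (adjusted p = 0.0254) without Day 1 replicate 1, and 0.02 (adjusted p = 0.990) without Day 1 replicate 2, all from limma. The rise from Day 2 to Day 3 was 1.15 (limma, SE 0.54, adjusted p = 0.379).

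*Itgb3* (chromosome 11, 104608000 to 104670476, plus strand), best known from platelets as the partner of αIIb, was low, at 3.16 and 2.68 FPKM (Day 0), 7.62 and 3.11 (Day 1), 5.54 and 4.68 (Day 2) and 3.81 and 2.89 (Day 3). The days overlapped except that both Day 2 values exceeded both Day 0 and both Day 3 values, and the log2 fold change between Day 0 and Day 3 was 0.14 (limma, SE 0.38, adjusted p = 0.786). *Itgb5* (chromosome 16, 33829665 to 33949338, plus strand) rested on 0 to 7 fragments per library, 0.60 and 0.75 FPKM (Day 0), 0 and 0.24 (Day 1), 0.25 and 0.69 (Day 2) and 0.28 and 2.25 (Day 3). Only Day 3 replicate 2 stood clear of the limit of 3 fragments, and a change in *Itgb5* was not detectable at this depth. *Itgb6*, the remaining β subunit known to pair with αv, was listed at 0 in every library.

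Pairs of subunit genes were also compared within each library, as the difference in log2(FPKM + 1) between 2 genes. *Itgav* minus *Itgb1* was -0.84 and -0.53 (Day 0), -2.12 and -1.80 (Day 1), -2.40 and -2.76 (Day 2) and -2.39 and -2.27 (Day 3). Both Day 0 libraries were above all others. The slope was -0.56 per day (exact two-sided permutation test over all arrangements of the 8 libraries, p = 0.0119, adjusted p = 0.0714 over the 6 differences computed). With the days permuted within replicate numbers alone, the exact permutation p was 0.0278 for this slope, unadjusted, and 0.503 to 1 for the others. This difference was chosen after its values were seen. The slopes of the 5 other differences, also by exact permutation tests, were -0.22 for *Itgb8* minus *Itgb1* (p = 0.468), -0.08 for *Itgb3* minus *Itgb1* (p = 0.594), -0.0004 for *Itgb5* minus *Itgb1* (p = 0.998), 0.09 for *Itgb4* minus *Itgb1* (p = 0.554) and -0.03 for *Itga7* minus *Itga6* (p = 0.898). The sign of 3 of these 5 slopes turned with another scaling of the libraries, for *Itgb3* and *Itgb5* minus *Itgb1* with quantile normalization and for *Itgb4* minus *Itgb1* with median ratio scaling. *Itgb4* and *Itgb5* rested on 0 to 8 fragments per library, so their slopes could not show a change in either gene. The smallest p that all arrangements can give is 0.000794, and 0.00347 within replicate numbers.

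**Figure D2:**
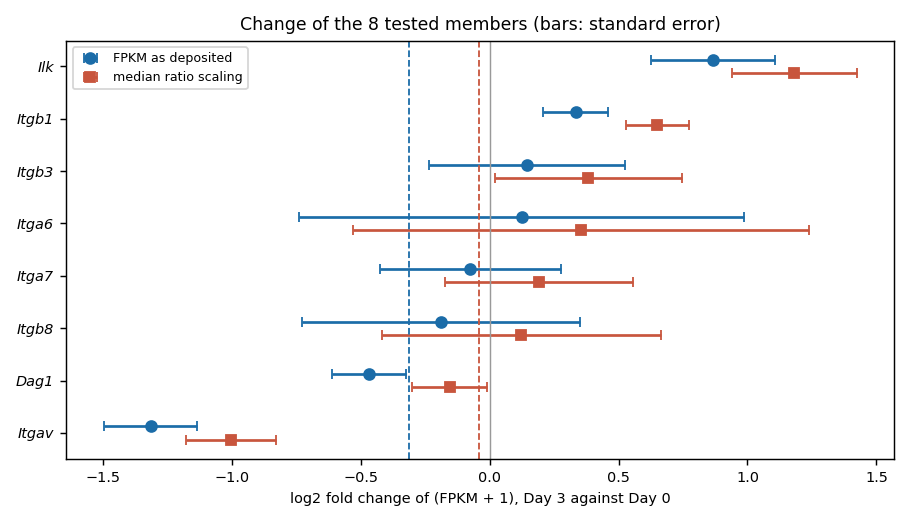
Log2 fold change of FPKM + 1 from Day 0 to Day 3 (x axis) for the 8 members tested (y axis), with points for the fitted value and bars for its standard error, in FPKM as deposited (blue circles) and after median ratio scaling (red squares). Dashed lines mark the median of all genes, -0.31 and -0.04, and the order of the members by fold change runs from *Itgav* at -1.31 to *Ilk* at 0.87 as deposited.

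The laminin receptor subunits other than β1 were scarce, and *Itga6* followed the replicate number rather than the day. *Itga6* (chromosome 2, 71745616 to 71858416, plus strand) was at 1.40, 0.78, 1.17 and 1.31 FPKM in replicate 1 and at 4.84, 5.39, 6.61 and 6.21 FPKM in replicate 2, from Day 0 to Day 3. The replicates did not overlap, and within a replicate the days differed little. Its log2 fold change between Day 0 and Day 3 was 0.12 (limma, SE 0.86, adjusted p = 0.922), with the sign turning to -0.52 without Day 0 replicate 1 and to -0.70 without Day 3 replicate 2. With day as a factor and the replicate number as a term, replicate 2 against replicate 1 was 1.65 (limma, SE 0.22, adjusted p = 0.0110), higher on 4 of 4 days, where 0.680% of all genes were called higher and 0.369% lower. The call was lost when any library of Day 0, Day 1 or Day 2 was left out, with log2 fold changes of 1.58 to 1.77 and adjusted p of 0.0554 to 0.103 (limma). The estimate behind it is about 4 to 9 fragments per library in replicate 1 and 25 to 38 in replicate 2.

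The astrocyte markers shared the replicate difference of *Itga6*. Within replicate 2 their sum went from 423.2 FPKM on Day 0 to 962.2 on Day 3, and *Itga6* from 4.84 to 6.21. Much of that sum was *Gfap*, at 153.9 FPKM on Day 0 and 602.8 on Day 3. In the same libraries *Sox9* went from 69.0 to 9.82 FPKM, and *Slc1a3* was at 56.2 and 56.3. From Day 0 to Day 3, 0 of the 8 markers were called higher and 1 lower, beside 11.96% and 26.27% of all genes tested. Of the 8 markers, 6 were called higher in replicate 2, beside 0.680% of all genes tested. Between the replicates the median log2 fold change over the list was 1.80, and none was called lower in replicate 2. *Gfap*, the intermediate filament of astrocytes, was 3.55 higher (limma, adjusted p = 1.03e-05) and the water channel *Aqp4* 3.97 higher (limma, adjusted p = 2.12e-05) on the log2 scale. Markers on other lists differed as well. In replicate 2 *Mag* was higher (0.69, adjusted p = 0.0425), and *Pdgfra* (-1.81, adjusted p = 0.0461) and *Tubb3* (-1.15, adjusted p = 0.0035, limma) were lower. The part of astrocyte RNA in the *Itga6* values was not tested, and the numbered cultures and their astrocyte marker level cannot be told apart here. *Itga6* also overlaps 2 noncoding genes on its own strand, Gm13662 and Gm13663. On the other strand it overlaps the noncoding gene Gm17250 (2088 bases) and the pseudogene Gm13739 (530 bases).

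*Itga7* (chromosome 10, 128933818 to 128958282, plus strand), whose protein is the laminin receptor of muscle, was at 4.54 and 6.08 FPKM (Day 0), 2.43 and 3.31 (Day 1), 4.29 and 5.04 (Day 2) and 3.42 and 7.01 (Day 3). Replicate 2 was above replicate 1 on 4 of 4 days, but the difference of 0.43 did not pass the threshold (limma, adjusted p = 0.463). Over the course the log2 fold change was -0.07 (limma, SE 0.35, adjusted p = 0.883), and it turned to 0.19 with median ratio scaling and 0.39 with quantile normalization. *Itgb4* (chromosome 11, 115974709 to 116008412, plus strand), the β subunit of hemidesmosomes, was at 0 in both Day 0 libraries, then at 0.27 and 0.65 FPKM (Day 1), 0.68 and 0.12 (Day 2) and 0.15 and 1.39 (Day 3). This is 0 to 8 fragments per library, and no change was detectable at this depth. Among the members tested, *Itga7* and *Itgb8* had their highest value in Day 3 replicate 2, the highest library for 12.8% of all genes tested. So did *Itgb4* and *Itgb5*, which were not tested and had at most 8 fragments in any library.

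**Figure D3:**
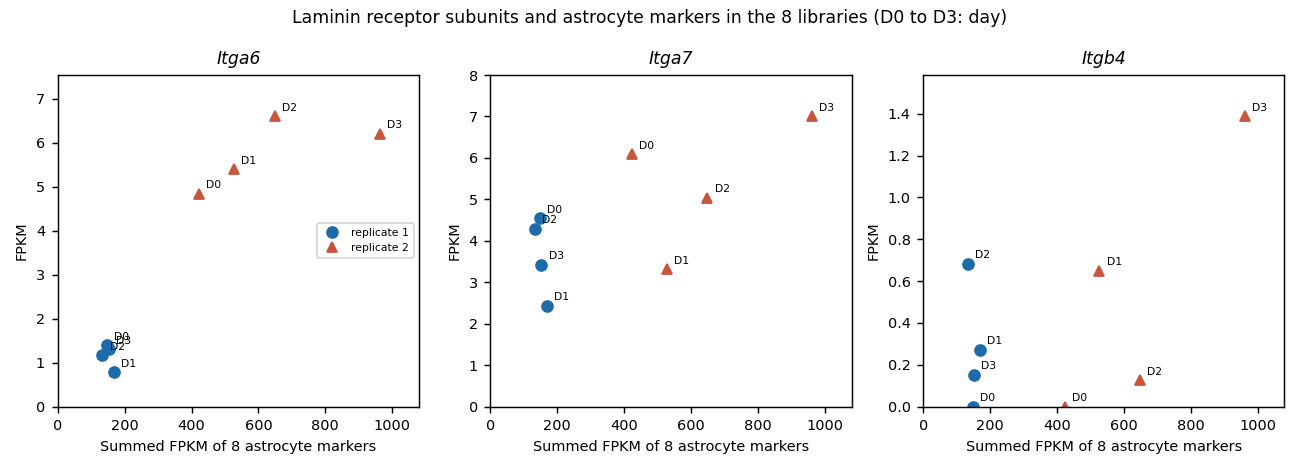
FPKM of *Itga6*, *Itga7* and *Itgb4* (y axes) against the summed FPKM of 8 astrocyte markers (x axes) in the 8 libraries, with circles for replicate 1 and triangles for replicate 2, labelled by day. The replicate 1 libraries sit at marker sums of 133.4–168.5 and the replicate 2 libraries at 423.2–962.2, and for *Itga6* the replicates are also apart on the y axis.

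*Dag1* was lowest on Day 3, with no called change before it. The gene is on chromosome 9 (108204634 to 108263958, minus strand). It was at 65.4 and 61.3 FPKM (Day 0), 61.1 and 57.7 (Day 1), 63.6 and 75.2 (Day 2) and 49.0 and 42.3 (Day 3), on 228 to 567 fragments per library. Both Day 3 libraries were below the other 6. The log2 fold change between Day 0 and Day 3 was -0.47 (limma, SE 0.14, adjusted p = 0.0339), from a mean of 63.4 ± 2.92 to 45.7 ± 4.73 FPKM (SD, n = 2). Relative to the median of all genes it was -0.15, and with median ratio scaling the call was lost (-0.15, adjusted p = 0.457 from limma). It was also lost without Day 0 replicate 1 (adjusted p = 0.151), Day 0 replicate 2 (0.0961) or Day 3 replicate 2 (0.152), and in a fit of Day 0 and Day 3 alone (0.0534). From Day 2 to Day 3 the log2 fold change was -0.59 (limma, SE 0.14, adjusted p = 0.118).

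The partners of dystroglycan were called in both directions. Of 13 genes of the dystrophin complex, 9 were tested, 2 rose and 2 fell from Day 0 to Day 3, with a median of -0.02. Among all genes tested, 11.96% were called higher and 26.27% lower. *Dtna*, which encodes the dystrophin relative α-dystrobrevin, was at 5.67 and 6.19 FPKM (Day 0), 11.0 and 15.0 (Day 1), 32.9 and 23.9 (Day 2) and 44.3 and 40.5 (Day 3). No 2 days overlapped, and its log2 fold change was 2.65 (limma, SE 0.22, adjusted p = 0.000127). *Sgcb*, which encodes the membrane protein β-sarcoglycan, rose by 1.48 (limma, adjusted p = 0.000341). *Dtnb*, the β-dystrobrevin gene, and *Utrn*, the utrophin gene, fell by 1.28 (adjusted p = 0.0479) and 1.10 (adjusted p = 0.0399, limma). Both calls were close to the threshold and were lost with median ratio scaling (limma, adjusted p = 0.110 for *Dtnb* and 0.0895 for *Utrn*). They were also lost with a pseudocount of 0.1 (0.0630 and 0.0739), no filter (0.0774 and 0.0578) and quantile normalization (0.131 and 0.172, limma). In a fit of Day 0 and Day 3 alone *Dtnb* was not called (limma, adjusted p = 0.101). Both calls were lost without either Day 0 library. Without replicate 1 and replicate 2, the log2 fold changes were -1.20 and -1.35 for *Dtnb* and -1.08 and -1.12 for *Utrn*. *Dmd*, the dystrophin gene, changed by -0.44 (limma, adjusted p = 0.230). Of 11 genes for the sugar chain by which dystroglycan binds laminin, 10 were tested, and 0 were called in any comparison of days, with a median of -0.32 from Day 0 to Day 3.

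*Ilk* was the member with the largest rise. The gene is on chromosome 7 (105736592 to 105742925, plus strand). Its level was 67.7 and 80.0 FPKM (Day 0), 107.6 and 167.8 (Day 1), 208.3 and 210.2 (Day 2) and 163.7 and 111.4 (Day 3). Both Day 0 libraries were below all others and both Day 2 libraries above all others, while Day 1 and Day 3 overlapped. On Day 2 *Ilk* was level with or above *Itgb1*, at 209 ± 1.29 against 178 ± 6.95 FPKM (SD, n = 2). The log2 fold change between Day 0 and Day 3 was 0.87 (limma, SE 0.24, adjusted p = 0.0229), that is, 1.18 relative to the median of all genes. The call was lost without Day 0 replicate 1 (0.75, adjusted p = 0.134), Day 0 replicate 2 (0.99, adjusted p = 0.0675) or Day 3 replicate 1 (0.59, adjusted p = 0.121). The first step was 0.86 (limma, adjusted p = 0.0531), and with the replicate number as a block it passed (adjusted p = 0.0470). The second was 0.63 (adjusted p = 0.176) and the third -0.63 (adjusted p = 0.287, limma).

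Between consecutive days *Itgav* was the only member called, in the first step. Day 2 against Day 1 had 2.16% of genes higher and 1.73% lower, and 0 of 8 members were called (limma), with 1 higher at an unadjusted p under 0.05 (*Ilk*). Day 3 against Day 2 had 0.246% higher and 0.0491% lower, and 0 of 8 members were called, with 2 lower at an unadjusted p under 0.05 (*Dag1* and *Ilk*). *Ilk* overlaps the genes *Taf10* (3533 bases) and *Rrp8* (794 bases) on the other strand. *Taf10* was at 64.6 and 64.6 FPKM on Day 0 and at 41.2 and 30.3 on Day 3, and *Rrp8* at 5.48 to 8.67 FPKM in all libraries. Whether fragments were counted by strand is not given in the sources used here, so that the *Ilk* values may include fragments of these genes. The same limit holds for *Itgav*, which overlaps the noncoding gene Gm13684 (22084 bases) and the pseudogene Dnmt3l-ps1 (1253 bases) on the other strand.

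Of the partners of Ilk, *Parvb* rose. It encodes β-parvin, which binds Ilk and actin, and was at 16.9 and 16.7 FPKM (Day 0), 110.7 and 228.1 (Day 1), 327.5 and 413.7 (Day 2) and 278.4 and 243.4 (Day 3). As for *Ilk*, the highest values were those of Day 2, and Day 0 was below every later day. The log2 fold change between Day 0 and Day 3 was 3.88 (limma, SE 0.29, adjusted p = 8.8e-05), of which 3.17 was reached on Day 1 (adjusted p = 0.000849). The other parvin measured, *Parva*, was at 8.79 and 8.61 FPKM on Day 0 and 5.36 and 5.39 on Day 3, and its change of -0.61 was not called (limma, adjusted p = 0.148). On the FPKM scale the parvin of higher level was therefore *Parvb* from Day 0 on, 16.8 ± 0.12 against 8.70 ± 0.13 on Day 0 and 261 ± 24.7 against 5.38 ± 0.03 on Day 3 (SD, n = 2).

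The PINCH genes and *Rsu1* fell. *Lims2*, which encodes PINCH2, was at 25.9 and 41.2 FPKM (Day 0), 37.7 and 48.2 (Day 1), 9.27 and 7.66 (Day 2) and 7.62 and 3.09 (Day 3). The drop lay between Day 1 and Day 2, where the log2 fold change was -2.21 (limma, adjusted p = 0.0201), and the Day 0 and Day 1 values overlapped. Over the 3 days it was -2.50 (limma, SE 0.36, adjusted p = 0.00123). *Rsu1*, whose product binds PINCH1, was at 84.5 and 72.1 FPKM (Day 0), 93.0 and 85.8 (Day 1), 45.4 and 39.9 (Day 2) and 37.7 and 22.2 (Day 3). It fell by 1.05 between Day 1 and Day 2 (adjusted p = 0.0456) and fell by 1.40 over the whole course (SE 0.23, adjusted p = 0.00217, limma). *Lims1*, which encodes PINCH1, fell by 0.74 (limma, adjusted p = 0.00881), a call lost with median ratio scaling (adjusted p = 0.0800) and without Day 0 replicate 1 (0.0504) or Day 0 replicate 2 (0.0556).

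**Figure D4:**
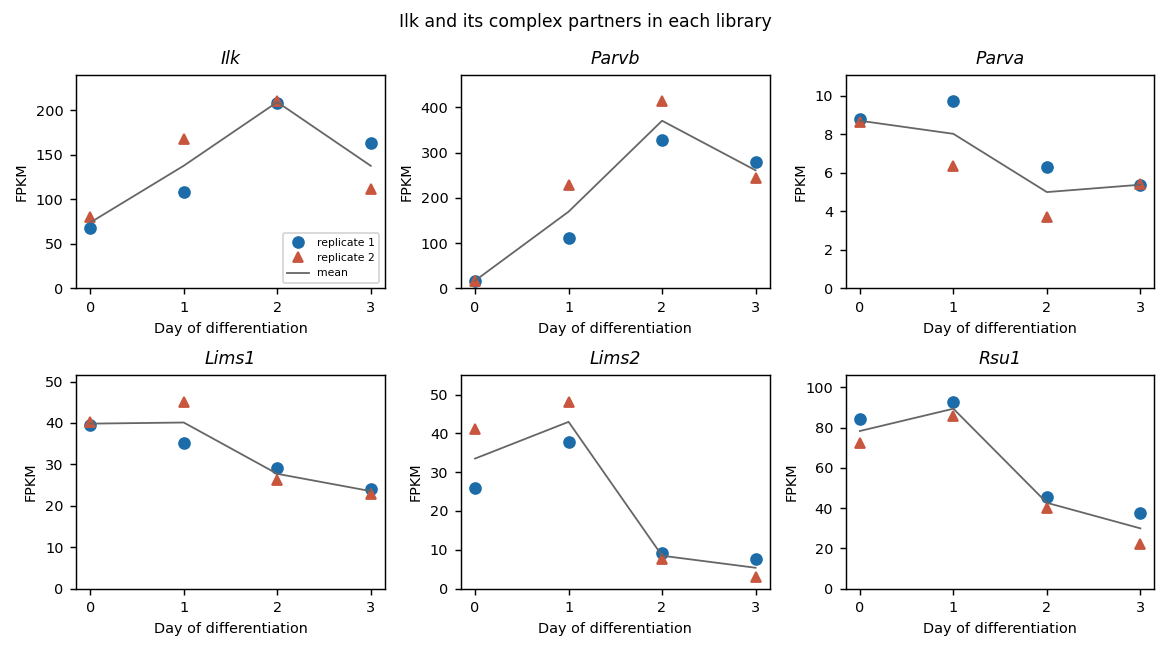
FPKM of *Ilk* and of 5 genes of its complex (y axes, each from 0) against day of differentiation (x axes), with circles for replicate 1, triangles for replicate 2 and a line through the daily means. *Ilk* and *Parvb* were highest on Day 2, while *Lims2* and *Rsu1* were high on Day 0 and Day 1 and low on Day 2 and Day 3.

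Other adaptors and kinases of integrin signaling also went both ways. Of 20 genes on that list, the PINCH and parvin genes included, 17 were tested, 5 rose and 5 fell from Day 0 to Day 3, and the median was -0.19. The shares among all genes tested were 11.96% higher and 26.27% lower. The tensins, which tie β subunits to actin, rose, *Tns3* by 2.42 (adjusted p = 6.91e-05) and *Tns1* by 2.98 (adjusted p = 0.000497, limma). *Tns3* was at 49.0 and 39.0 FPKM on Day 0 and 270.1 and 210.8 on Day 3. Of the kinases, *Ptk2* (focal adhesion kinase) rose by 1.09 (adjusted p = 0.00235) and *Src* fell by 2.19 (adjusted p = 0.000341, limma). *Fyn*, a Src-family kinase known for its part in myelination, rose by 1.63 from Day 0 to Day 1 (limma, adjusted p = 0.00305), from 154.4 and 155.2 to 426.6 and 546.2 FPKM, and was at 279.2 and 171.0 FPKM on Day 3. Its change over the whole course was 0.49 (limma, adjusted p = 0.129), which passed with median ratio scaling (0.81, adjusted p = 0.0234) and without Day 3 replicate 2 (0.85, adjusted p = 0.0209).

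Of 18 further integrin subunits, 7 were tested, and from Day 0 to Day 3 1 rose and 4 fell, with a median of -1.64. For all genes tested the shares were 11.96% higher and 26.27% lower. *Itga8*, a partner of β1 that binds RGD ligands as αv does, was at 28.6 and 17.9 FPKM (Day 0), 1.83 and 0.14 (Day 1), 0.28 and 0.13 (Day 2) and 0.63 and 0.72 (Day 3). Day 0 stood apart from all later days, and the log2 fold change was -3.82 (limma, SE 0.46, adjusted p = 0.000517), nearly all of it in the first step (-3.72, adjusted p = 0.00170). *Itga4*, a fibronectin and VCAM-1 receptor subunit, fell by 2.07 (adjusted p = 0.00776, but 0.0567 without Day 0 replicate 1) and *Itga9* by 1.87 (adjusted p = 0.00456, limma). *Itga2*, a collagen receptor subunit, rose by 2.02 (limma, adjusted p = 0.00508), from 0.31 and 0.19 FPKM on Day 0 to 2.83 and 5.69 on Day 3. Among all α subunits measured here, *Itga8* came next to *Itgav* on Day 0, and on Day 3 *Itgav* alone was above 10 FPKM.

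The ligands measured in the same cultures were few. Of 20 laminin and other matrix genes, 9 were tested, and 1 rose and 3 fell from Day 0 to Day 3, with a median of -0.31. All genes tested had 11.96% called higher and 26.27% lower. *Agrn*, which encodes agrin, a ligand of dystroglycan, was at 20.0 and 24.0 FPKM (Day 0), 35.0 and 50.8 (Day 1), 70.9 and 79.9 (Day 2) and 75.2 and 64.5 (Day 3). The days were apart except Day 2 and Day 3, and the log2 fold change was 1.63 (limma, SE 0.20, adjusted p = 0.000539). *Col4a2* fell by 2.60 (adjusted p = 0.00293), *Col4a1* fell by 2.55 (adjusted p = 0.0313) and *Lama4* fell by 2.33 (adjusted p = 0.0231, limma). *Col4a1* and *Lama4*, genes of basement membranes, were also lower in replicate 2 than in replicate 1 (-1.41, adjusted p = 0.0394, and -1.19, adjusted p = 0.0413, limma). Their falls were lost without Day 0 replicate 1 (adjusted p = 0.201 and 0.136) or Day 3 replicate 2 (0.142 and 0.140), that of *Col4a1* without Day 3 replicate 1 (0.0660) and with no filter on low values (0.0575), and that of *Lama4* without Day 0 replicate 2 (0.0693). *Lamc1*, the γ1 chain of most laminins, was at 25.9 to 41.8 FPKM in all libraries and was not called.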

How the data were processed

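Stranded, paired-end mRNA libraries from 8 cultures (4 days, 2 replicates per day) were processed by the authors with OmicSoft ArrayStudio, and the deposited table holds FPKM of 23427 genes with a column per library and no pooling. The labels name the genome build mm10. The aligner, the gene model and the use of strand are not given in the sources used here. The labels give DMEM with fetal bovine serum, and the methods a medium of defined supplements and another RNA kit. The purification and differentiation steps are those of the methods.

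The authors' test, DESeq2, needs counts, so FPKM were compared here as log2(FPKM + 1) with limma 3.58.1 in R 4.3.3, with eBayes and a trend, day as a factor and all 8 libraries in a single fit, over the 12208 genes that reached 1 FPKM in 2 or more libraries. Changes of genes of low FPKM are understated by the added 1. Differences between genes were tested by exact permutation. Days and replicate numbers came from the labels. The difference between the numbered replicates correlated across days at r = 0.164 to 0.285 over 6 pairs of days, across genes, which are not independent. The numbers may therefore pair the libraries, but the main fits of days and the main permutation tests left them out. They entered as a block among the alternatives, in the permutation within replicate numbers and in the comparison of the replicates. The alternatives were a pseudocount of 0.1, no filter (15267 genes), median ratio scaling, quantile normalization, the replicate number as a block, a fit restricted to the compared days and each library left out in turn. Fragments were estimated from the spacing of the lowest values and the longest transcript in GENCODE M21 (GRCm38), which also gave positions. The limit was 3 fragments, for counting error only.

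The members, the lists and the tests were chosen with earlier results of these data known. All members were named, and of each other list up to 4 called genes with the largest change from Day 0 to Day 3, plus genes needed beside a member. *Fyn*, *Ptk2*, *Src*, *Gfap*, *Aqp4*, *Dmd* and *Lamc1* were named for their known roles after their values were seen. Python 3.11.15 with pandas 2.3.3, numpy 2.4.6 and matplotlib 3.10.9 was used for the other steps.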

Additional observations from a re-analysis of the deposited data

How the results depend on the processing

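Of the members, *Itgav* kept its fall from Day 0 to Day 3 past the threshold under every alternative run, and the calls of *Dag1* and *Ilk* did not. The number of members called higher and lower from Day 0 to Day 3 (1 and 2) became 2 and 1 with median ratio scaling, and 1 was lower in a fit of only those days. For Day 1 against Day 0 (0 and 1), 1 was higher with median ratio scaling, quantile normalization or the replicate block, in each case *Ilk*. The block changed no other member's call. Leaving out each library gave 0 to 1 members higher and 1 to 2 lower from Day 0 to Day 3, 0 to 1 higher and 0 to 2 lower from Day 0 to Day 1, and 0 to 1 higher in replicate 2. Where this left a day with a single library, that library was taken to vary like the other days.

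Counts over all genes moved as follows. Day 3 against Day 0 had 1460 higher and 3207 lower, and 2042 lower with median ratio scaling (965 to 1440 higher and 1799 to 3108 lower without a library). Day 1 against Day 0 had 615 higher and 923 lower, 406 higher in a fit of only those days (216 to 627 and 359 to 958 without a library). From Day 1 to Day 2, 264 were higher and 211 lower. These became 154 and 93 with no filter and 0 and 0 in a fit of only those days, and those lower became 104 with median ratio scaling, 131 with quantile normalization and 436 with the replicate block (11 to 221 and 0 to 224 without a library). From Day 2 to Day 3, 30 were higher and 6 lower. These became 119 and 44 with the replicate block and 0 and 0 with no filter or only those days, and 4 were higher with a pseudocount of 0.1 (0 to 78 and 0 to 145 without a library). Between replicates, 83 were higher and 45 lower, 41 and 18 with no filter and 50 and 22 with a pseudocount of 0.1 (28 to 59 and 10 to 25 without a library).

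Signs turned only among values that had not passed. From Day 0 to Day 3, *Itga7* turned to 0.19 with median ratio scaling and 0.39 with quantile normalization, and *Itgb8* to 0.12 with median ratio scaling. Without a library, *Itga6* ranged from -0.70 to 0.95, *Itga7* from -0.50 to 0.35, *Itgb3* from -0.0081 to 0.30, *Itgb8* from -0.68 to 0.30, and *Itgb8* from Day 0 to Day 1 from -1.84 to 0.019. The slope of *Itgb3* minus *Itgb1* turned to 0.10 and that of *Itgb5* minus *Itgb1* to 0.14 with quantile normalization, the latter also to 0.11 with a pseudocount of 0.1, and that of *Itgb4* minus *Itgb1* to -0.005 with median ratio scaling. Without a library these ranged from -0.24 to 0.13 for *Itgb5* minus *Itgb1*, -0.065 to 0.20 for *Itgb4* minus *Itgb1* and -0.15 to 0.12 for *Itga7* minus *Itga6*. The causes were not tested. Depth limits *Itgb4* and *Itgb5*, at 0 to 8 fragments per library, and *Itga6* in replicate 1, at 4 to 9.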

Other observations

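The genes whose log2(FPKM + 1) ran most like that of *Ilk* over the 8 libraries, by Pearson's r, were *Zadh2* (0.98), *Kif26a* (0.98), *Mycl1* (0.98), *Rac1* (0.98) and *Tmem63b* (0.98), among 144 genes with r above 0.9. Those most like *Itgav* were *Trim32* (0.99), *Lrrc40* (0.99), *Nutf2-ps1* (0.99), *Socs3* (0.99) and *Dut* (0.98), among 779 genes with r above 0.9. The 8 libraries share their days and replicate numbers, and these values describe likeness only.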
